A study of Arabidopsis thaliana with 6 samples.

Results

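The plastid genome of Arabidopsis thaliana was followed through the 32 of its genes that the authors listed as changed, out of 113 plastid genes on the list used here and out of 5330 listed genes in all. The members are all rows of the deposited tables that lie on the plastid chromosome. They comprise 30 protein-coding rows and 2 tRNA genes. All 32 stood in the table of genes lower in the mutant-labelled libraries, and the authors' thresholds decided which plastid genes are seen: a change of at least 1 in either direction on the log2 scale, and a false discovery rate under 0.05.

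RNA came from whole seedlings of a line labelled epl1a epl1b, in the Columbia-0 ecotype, and of wild-type Col-0. EPL1A and EPL1B encode Enhancer of Polycomb-like proteins, subunits of NuA4, a complex that acetylates histone H4. Seeds of both groups were kept 3 days at 4 °C, then grown for 14 days at 22 °C on Murashige and Skoog plates with 1% sucrose, in days of 16 h light (100 µmol per square metre and second) and 8 h dark. Seedlings were taken 8 h after dawn. Each group had 3 libraries of total RNA depleted of ribosomal RNA, from 3 independent experiments per the design text. The sources used here do not give what the alleles remove or whether the line is 1 isolate.

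The plastid genome is what remains of the genome of a cyanobacterium. It encodes core subunits of the photosynthetic complexes, part of the plastid ribosome, the tRNAs and rRNAs, and the core of a bacterial-type RNA polymerase, the plastid-encoded polymerase or PEP. A second, phage-type polymerase, the nuclear-encoded polymerase or NEP, is imported from the cytosol. PEP mainly transcribes photosynthesis genes from promoters with a pair of bacterial boxes, whereas NEP transcribes the rpoB operon, accD and ycf2, and many other genes have promoters of both kinds, as worked out largely in tobacco. Most plastid genes are cotranscribed with their neighbours, and the long transcripts are then cut by nuclear-encoded factors.

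The following sequences show where a read can be assigned to one gene and where it cannot. They are from the RefSeq plastid sequence of assembly TAIR10.1, on which 30 of the 32 deposited spans coincide exactly with one annotated gene. The other 2 each run over a pair of genes: the row named atpE holds atpE and atpB, and the row named psbD holds psbD and psbC. In both pairs the coding sequences overlap, by 4 bases (Pt:52645-52678, minus strand) and 53 bases (Pt:33705-33787, plus strand), and the overlap is in capitals.
atpB into atpE: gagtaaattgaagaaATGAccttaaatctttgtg
psbD into psbC: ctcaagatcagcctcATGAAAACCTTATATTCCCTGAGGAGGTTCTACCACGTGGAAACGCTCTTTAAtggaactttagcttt
The genes of the psbE unit are among the shortest and closest. The stretch from the stop codon of psbE to the start codon of psbL (Pt:63918-64073, minus strand) has the whole psbF coding sequence in capitals, with 9 bases before it and 21 after it, so a read of 50 bases can lie on 2 genes.
psbE to psbL: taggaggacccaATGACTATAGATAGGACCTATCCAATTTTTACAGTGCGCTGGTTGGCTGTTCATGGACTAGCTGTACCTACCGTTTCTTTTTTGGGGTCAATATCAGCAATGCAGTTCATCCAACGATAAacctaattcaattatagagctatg
Of all members, psbA alone had the hexamer TTGACA followed, after 15 to 21 bases, by TATAAT with up to 1 mismatch on its own strand in the 250 bases before its start. The boxes are in capitals and end 85 bases before the coding sequence (Pt:1530-1559, minus strand).
psbA boxes: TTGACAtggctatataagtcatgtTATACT
Such a pair stood in 1 of 34 windows of the genes in listed rows (2.94%) and in 5 of 131 windows of all annotated plastid genes (3.82%). Each annotated copy of a gene has its own window, and the windows of trnY and trnE hold the same pair. The mismatch was allowed after exact pairs had been searched, and no match says only that these letters are not in the window. Read on both strands in windows that also hold the first 50 bases of the gene, TTGACA alone was in 17.6% of listed and 21.4% of all windows, and TATAAT alone in 41.2% and 38.2%.

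Levels are given as normalised reads, the reads of a gene divided by a factor for the depth of each library. The factors, recovered from the authors' fold changes, were 1.16, 1.04 and 1.2 for epl1ab-labelled replicates 1 to 3 and 1, 0.931 and 0.82 for Col-0. Of the targeted genes, EPL1A had 128, 122 and 124 normalised reads in the epl1ab-labelled libraries, against 360, 378 and 364 in Col-0, while EPL1B had 17029, 16996 and 17128 against 743, 762 and 654. EPL1B goes against the label of a mutant in that gene, so the libraries are called by their label and directions hold between labels. One epl1ab-labelled library stood apart: 7 listed seed maturation genes of 8 checked summed to 834, 138903 and 203256 normalised reads in epl1ab-labelled replicates 1 to 3, against 306, 235 and 30.5 in Col-0. Of 5 root genes checked 1 was listed, with 30.3, 29.9 and 46.9 normalised reads in the epl1ab-labelled libraries, against 20, 7.52 and 15.9 in Col-0. The part of these tissues in the plastid values was not tested. The summed plastid reads were 3716, 3463 and 2879 normalised reads in epl1ab-labelled replicates 1 to 3, and the lowest Col-0 library had 7112. Within the epl1ab-labelled group their order was opposite to that of the seed maturation reads, and a relation between them was not tested.

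The listed plastid transcripts, all of which the authors had listed as lower, were less abundant in every epl1ab-labelled library. Summed over the 32 rows they came to 3716, 3463 and 2879 normalised reads in epl1ab-labelled replicates 1 to 3, against 9251, 9131 and 7112 in Col-0 replicates 1 to 3. The groups did not overlap, and Col-0 replicate 3 was the lowest of its group. The means of 3353 ± 429 and 8498 ± 1202 (SD, n = 3 each) differ 2.53-fold, a log2 ratio of -1.34. Each row had passed the authors' threshold, so the lower sum repeats that choice. Plastid genes outside the tables are not in it. The members' reads were 11324 over the epl1ab-labelled and 23581 over the Col-0 libraries, and made up 0.057, 0.0488 and 0.0399% of all reads in listed genes in the epl1ab-labelled libraries and 0.0846, 0.0805 and 0.0629% in Col-0. These are few: in Col-0 the nuclear photosystem II gene PSBR alone had 135731 normalised reads on average, against 8498 for the 32 rows together. How reads were aligned and counted is not given, so how much of the plastid RNA these counts hold is not known. Fewer plastids or chloroplast-bearing cells and less RNA per plastid cannot be told apart in such bulk samples. In edgeR's quasi-likelihood test with Benjamini-Hochberg adjustment, 31 members passed the filter on low counts and each was called lower, with adjusted p between 1.07e-05 and 0.0126. Of all genes in that fit 36.9% were called lower, 63.1% higher and 100% in either direction, because the authors had listed them for this contrast, so the calls repeat that choice. For the same reason the absence of overlap between groups, seen in all 32 members, is a description, and 33.9% of all listed genes have it in the lower direction. The members' median log2 fold change was -1.37, beside -1.44 over all lower genes and 1.26 over all genes in the fit.

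**Figure D1:**
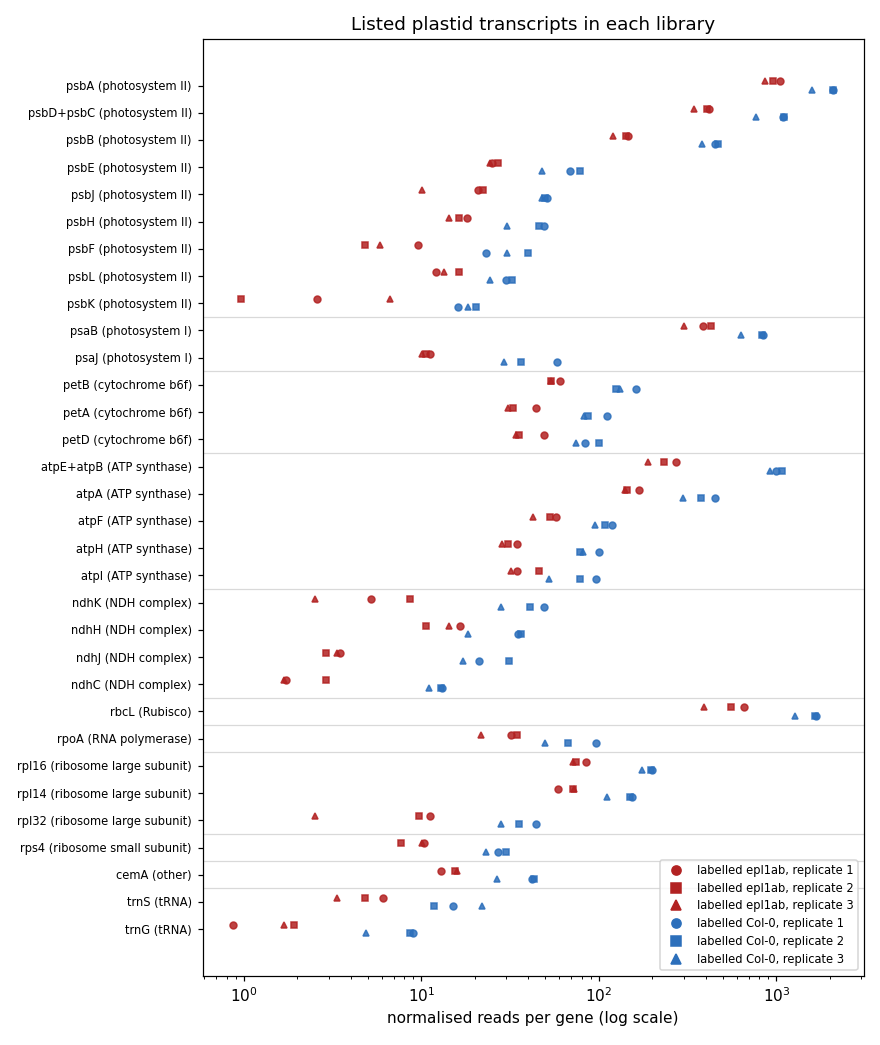
Normalised reads of each listed plastid gene (log axis) in the 3 libraries labelled epl1ab (red, upper row of each gene) and the 3 labelled Col-0 (blue, lower row), grouped by function, with a symbol shape for each replicate. Every red point of a gene lies left of its blue points, and psbA is the most abundant row at 957 and 1917 normalised reads on average.

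Photosystem II, which splits water, had 9 listed rows of the 15 genes on its plastid list. psbA, which encodes the D1 reaction centre protein, had 1047, 961 and 864 normalised reads in the epl1ab-labelled libraries, against 2075, 2097 and 1579 in Col-0. Its log2 fold change of -1.002 ± 0.13 (SE, adjusted p = 0.000198) was the smallest of all members and lay at the authors' threshold, where atpI (-1.02 ± 0.28) and rpl14 (-1.03 ± 0.19) also stood. The row of psbD and psbC, which encode the D2 protein and an inner antenna protein, had 415, 407 and 344 normalised reads in the epl1ab-labelled libraries, against 1089, 1098 and 771 in Col-0, and changed by -1.34 ± 0.16 (SE, adjusted p = 0.000125). psbB, for the other inner antenna protein, had 145, 142 and 120.5 normalised reads in the epl1ab-labelled libraries, against 453, 472 and 379 in Col-0. It fell by 1.68 ± 0.14 on the log2 scale (SE, adjusted p = 2.18e-05), which is 3.2-fold.

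psbE and psbF encode the subunits of cytochrome b559, and psbL and psbJ small subunits of the same photosystem. These 4 genes form one transcription unit, and all 4 were listed. Upstream in it, psbE had 25.1, 27.0 and 24.3 normalised reads in the epl1ab-labelled libraries, against 69, 78.4 and 47.6 in Col-0. For psbF the values were 9.52, 4.82 and 5.86 normalised reads in the epl1ab-labelled libraries, against 23, 39.7 and 30.5 in Col-0. For psbL they were 12.1, 16.4 and 13.4 normalised reads in the epl1ab-labelled libraries, against 30, 32.2 and 24.4 in Col-0. At the far end of the unit psbJ had 20.8, 22.2 and 10.04 normalised reads in the epl1ab-labelled libraries, against 51, 49.4 and 47.6 in Col-0. The log2 fold changes were -1.35 ± 0.24 for psbE, -2.17 ± 0.36 for psbF, -1.05 ± 0.24 for psbL and -1.49 ± 0.30 for psbJ (SE). psbH, a small core subunit, had 18.2, 16.4 and 14.2 normalised reads in the epl1ab-labelled libraries, against 49, 46.2 and 30.5 in Col-0, and a log2 fold change of -1.37 ± 0.26 (SE, adjusted p = 0.00142). psbK, a small subunit beside the inner antenna, had 2.6, 0.965 and 6.69 normalised reads in the epl1ab-labelled libraries, against 16, 20.4 and 18.3 in Col-0. These are 12 and 50 reads in all, and its log2 fold change of -2.33 ± 0.50 (SE, adjusted p = 0.0025) became -3.24 without epl1ab-labelled replicate 3.

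Photosystem I had 2 listed genes of 5. psaB, a subunit of its reaction centre, had 386, 426 and 303 normalised reads in the epl1ab-labelled libraries, against 838, 834 and 631 in Col-0, and changed by -1.05 ± 0.17 (SE, adjusted p = 0.000629). psaJ, a small subunit, had 11.3, 10.6 and 10.04 normalised reads in the epl1ab-labelled libraries, against 58, 36.5 and 29.3 in Col-0, and changed by -1.96 ± 0.33 (SE, adjusted p = 0.00066). The Col-0 values of psaJ spread over a 2-fold range, while its epl1ab-labelled values lay close together. Cytochrome b6f, which links the photosystems, had 3 listed genes of 6, with log2 fold changes from -1.38 to -1.11. petA, for cytochrome f, had 44.1, 32.8 and 31.0 normalised reads in the epl1ab-labelled libraries, against 111, 87.0 and 83.0 in Col-0. petB, for cytochrome b6, had 60.6, 54.0 and 53.6 normalised reads in the epl1ab-labelled libraries, against 161, 126 and 132 in Col-0. petD, for subunit IV, had 49.3, 35.7 and 34.3 normalised reads in the epl1ab-labelled libraries, against 84, 99.9 and 74.4 in Col-0. The log2 fold changes were -1.38 ± 0.22, -1.31 ± 0.17 and -1.11 ± 0.22 (SE) in that order.

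The ATP synthase makes ATP from the proton gradient across the thylakoid membrane, and 5 rows covering all 6 of its plastid genes were listed. The row of atpE and atpB, which encode the epsilon and beta subunits of the catalytic part, had 273, 231 and 189 normalised reads in the epl1ab-labelled libraries, against 992, 1069 and 915 in Col-0. With a log2 fold change of -2.10 ± 0.16 (SE, adjusted p = 1.07e-05), or 4.29-fold, it had the smallest adjusted p of all members. The other 4 genes lie in the unit rps2-atpI-atpH-atpF-atpA, of which rps2 was not in the tables. atpI, for the proton channel subunit, had 34.6, 46.3 and 31.8 normalised reads in the epl1ab-labelled libraries, against 96, 78.4 and 52.5 in Col-0. atpH, for the subunit of the rotating ring, had 34.6, 30.9 and 28.5 normalised reads in the epl1ab-labelled libraries, against 100, 78.4 and 81.7 in Col-0. atpF, for the peripheral stalk, had 57.1, 53.0 and 42.7 normalised reads in the epl1ab-labelled libraries, against 119, 108 and 95.2 in Col-0. atpA, at the end of the unit and for the alpha subunit of the head, had 168, 145 and 139.7 normalised reads in the epl1ab-labelled libraries, against 453, 376 and 298 in Col-0. Their log2 fold changes ran from -1.02 ± 0.28 for atpI and -1.08 ± 0.19 for atpF to -1.32 ± 0.18 for atpA and -1.47 ± 0.19 for atpH (SE).

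The NDH complex returns electrons from photosystem I into the transport chain, and 4 of its 11 plastid genes were listed. The 3 genes of the unit ndhC-ndhK-ndhJ had the largest falls of the members in the fit. ndhC had 1.73, 2.89 and 1.67 normalised reads in the epl1ab-labelled libraries, against 13, 12.9 and 10.98 in Col-0. ndhK had 5.19, 8.68 and 2.51 normalised reads in the epl1ab-labelled libraries, against 49, 40.8 and 28.1 in Col-0. ndhJ had 3.46, 2.89 and 3.35 normalised reads in the epl1ab-labelled libraries, against 21, 31.2 and 17.1 in Col-0. The log2 fold changes were -2.51 ± 0.38 (SE, adjusted p = 0.000392) for ndhC, -2.86 ± 0.42 (SE, adjusted p = 0.000342) for ndhK and -2.79 ± 0.38 (SE, adjusted p = 0.000212) for ndhJ. Their reads were few, with 7 and 34 for ndhC over the epl1ab-labelled and Col-0 groups, 18 and 110 for ndhK, and 11 and 64 for ndhJ. ndhH, first gene of another long ndh unit, had 16.4, 10.6 and 14.2 normalised reads in the epl1ab-labelled libraries, against 35, 36.5 and 18.3 in Col-0. Its log2 fold change of -1.12 ± 0.34 (SE, adjusted p = 0.0126) was no longer called without Col-0 replicate 1 (-0.99, adjusted p = 0.0545) or without Col-0 replicate 2 (-0.96, adjusted p = 0.0541).

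rbcL, for the large subunit of Rubisco, the enzyme that fixes carbon dioxide, had 658, 555 and 392 normalised reads in the epl1ab-labelled libraries, against 1679, 1645 and 1277 in Col-0. Within the epl1ab-labelled group replicate 3 was the lowest, and the log2 fold change was -1.52 ± 0.20 (SE, adjusted p = 0.000209).

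**Figure D2:**
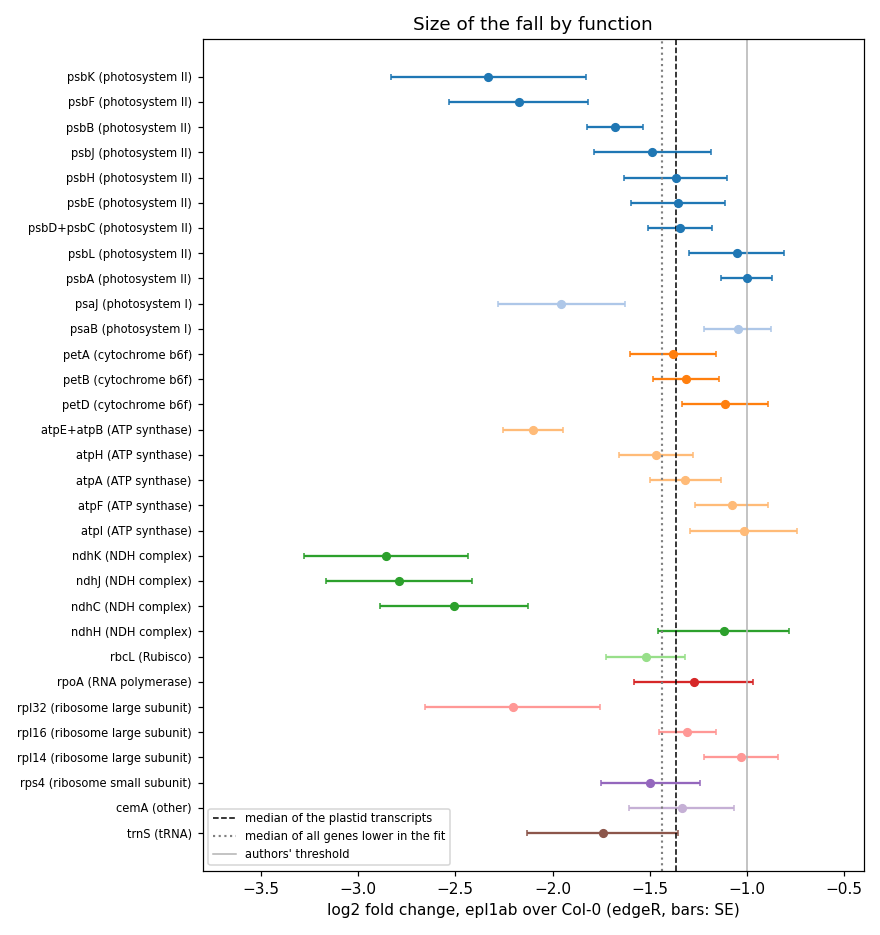
Log2 fold change of each plastid transcript in the edgeR fit, epl1ab-labelled over Col-0 libraries, with bars of 1 SE and members grouped by function. The dashed line is the members' median (-1.37), the dotted line the median of all lower genes (-1.44) and the grey line the authors' threshold; ndhK, ndhJ and ndhC lie farthest to the left.

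Fewer genes of the plastid's own expression machinery were listed. rpoA, for the alpha subunit of PEP, had 32.0, 34.7 and 21.8 normalised reads in the epl1ab-labelled libraries, against 96, 66.6 and 50.0 in Col-0, and changed by -1.27 ± 0.31 (SE, adjusted p = 0.00441). The 3 genes of the rpoB operon, which encode the other PEP subunits, were not in the tables. rpoA is the last gene of the large ribosomal protein cluster, in which rpl16 and rpl14 were also listed. rpl16, a protein of the large ribosomal subunit, had 84.8, 74.3 and 71.1 normalised reads in the epl1ab-labelled libraries, against 200, 195 and 174 in Col-0. rpl14, of the same subunit, had 58.9, 71.4 and 72.8 normalised reads in the epl1ab-labelled libraries, against 154, 149 and 111 in Col-0. Their log2 fold changes were -1.31 ± 0.15 and -1.03 ± 0.19 (SE). rpl32, a large-subunit gene outside the cluster, had 11.3, 9.65 and 2.51 normalised reads in the epl1ab-labelled libraries, against 44, 35.4 and 28.1 in Col-0, and changed by -2.21 ± 0.45 (SE, adjusted p = 0.00188). rps4, for a protein of the small subunit, had 10.4, 7.72 and 10.04 normalised reads in the epl1ab-labelled libraries, against 27, 30.1 and 23.2 in Col-0, and changed by -1.497 ± 0.26 (SE, adjusted p = 0.000753). Of the plastid ribosomal protein genes 3 of 9 were listed for the large and 1 of 12 for the small subunit.

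cemA, for a protein of the inner envelope, and petA end the unit psaI-ycf4-cemA-petA. cemA had 13.0, 15.4 and 15.9 normalised reads in the epl1ab-labelled libraries, against 42, 43.0 and 26.8 in Col-0, and its log2 fold change of -1.34 ± 0.27 (SE, adjusted p = 0.00175) was close to that of petA. Of 30 tRNA genes on the list 2 were in the tables, and both lie close to psbK on the same strand. trnS, a serine tRNA gene, had 6.06, 4.82 and 3.35 normalised reads in the epl1ab-labelled libraries, against 15, 11.8 and 22.0 in Col-0, and changed by -1.74 ± 0.39 (SE, adjusted p = 0.00306). trnG, a glycine tRNA gene whose span holds an intron, had 0.866, 1.93 and 1.67 normalised reads in the epl1ab-labelled libraries, against 9, 8.59 and 4.88 in Col-0. It had 5 and 21 reads over the groups and did not pass the filter, and the authors' deposited table gives it a log2 fold change of -2.34. Mature tRNAs are short and folded, and the reads in these spans do not show whether they come from mature tRNA. None of the 4 rRNA genes was in the tables, and rRNA had been depleted.

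Since every member in the fit fell, the question within the plastid genome was which transcripts changed by another amount than the rest. The same edgeR test was therefore run with the summed plastid reads as the size of each library, and 29 members passed the filter. This fit held 4901 listed genes, most of them nuclear, and its estimate of spread is partly shared over them. A member not called in it may therefore still differ from the plastid sum. Against the plastid sum, the atpE row with atpB changed by -0.78 ± 0.20 (SE, adjusted p = 0.00472), ndhK by -1.52 ± 0.42 (SE, adjusted p = 0.007) and ndhJ by -1.46 ± 0.43 (SE, adjusted p = 0.0098). These 3 members were called lower than the plastid sum, and 0 were called higher, also at an unadjusted p under 0.05. DESeq2 called 1 lower, the atpE row, and 0 higher. With psbA left out of the sum, or with the replicate number as a block, 1 was called higher, psbA. Of all genes in this fit 9.04% were called lower, 64.4% higher and 73.4% in either direction. The 3 of 29 members called lower are close to the share called lower over all genes, so their number is only a description. The atpE row was called under each alternative run, with adjusted p from 0.000563 to 0.0298. ndhK and ndhJ were not called by DESeq2 with the same library sizes (adjusted p = 0.0802 and 0.179), and ndhJ was not called without epl1ab-labelled replicate 2 (adjusted p = 0.0516). The units ndhC-ndhK-ndhJ and atpB-atpE follow each other on the same strand of the plastid map, with 2 tRNA genes between them.

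Other members with large falls were not called against the plastid sum. The values were -0.99 ± 0.59 (SE, adjusted p = 0.159) for psbK, -0.86 ± 0.41 (SE, adjusted p = 0.086) for psbF, -0.89 ± 0.43 (SE, adjusted p = 0.0889) for rpl32 and -0.60 ± 0.35 (SE, adjusted p = 0.155) for psaJ. psbK was called without epl1ab-labelled replicate 3 (-2.05, adjusted p = 0.0153) and rpl32 without epl1ab-labelled replicate 1 (-1.18, adjusted p = 0.0452). psbA, which has the most reads, stood at 0.35 ± 0.16 (SE, adjusted p = 0.0817). It was called higher when it was itself left out of the sum (0.47, adjusted p = 0.0332) and with a replicate block (0.35 ± 0.08, SE, adjusted p = 0.0127). The authors' threshold leaves out transcripts that fell less, so the higher side of this comparison is cut short.

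**Figure D3:**
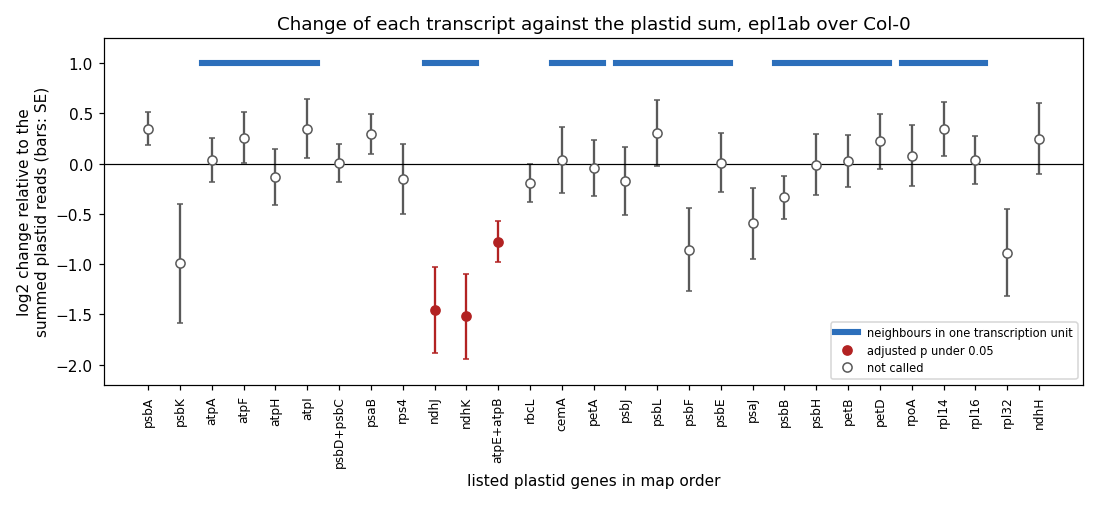
Log2 change of each plastid transcript relative to the summed plastid reads (edgeR, bars 1 SE), epl1ab-labelled over Col-0, in the order of the plastid map; blue bars join listed neighbours of one transcription unit. The atpE row, ndhK and ndhJ (filled red) were called at -0.78, -1.52 and -1.46, and the remaining members (open) were not called in this fit, psbA at 0.35 included.

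Neighbours in one unit were compared by the ratio of their reads within each library, which needs no scaling. There were 14 such pairs of listed neighbours and, added after seeing the values, 2 ratios between units of one complex. With 3 libraries against 3 the two-sided exact permutation test cannot go below p = 0.1, and no ratio was called after adjustment over the 16 (adjusted p from 0.4 to 0.9). The ratio of ndhC, ndhK and ndhJ together to ndhH was 0.632, 1.36 and 0.529 in the epl1ab-labelled libraries, against 2.37, 2.32 and 3.07 in Col-0. The groups did not overlap, and the exact p of 0.1 was the smallest possible. The ratio of the atpE row to the sum of atpI, atpH, atpF and atpA was 0.926, 0.842 and 0.779 in the epl1ab-labelled libraries, against 1.29, 1.67 and 1.74 in Col-0, again without overlap and with an exact p of 0.1. In both complexes the ratio was lower in each epl1ab-labelled library than in each Col-0 library. Both ratios were chosen with the larger falls of their upper genes already seen, so this separation is only a description. The NDH ratio rests on 47 reads of ndhH over the epl1ab-labelled and 84 over the Col-0 libraries.

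Within units, 2 of the 14 neighbour ratios did not overlap between the groups. atpF over atpH was 1.65, 1.72 and 1.5 in the epl1ab-labelled libraries, against 1.19, 1.38 and 1.16 in Col-0 (exact p = 0.1). psbH over psbB was 0.125, 0.116 and 0.118 in the epl1ab-labelled libraries, against 0.108, 0.0979 and 0.0804 in Col-0 (exact p = 0.1). The ratio of psbF to psbE was 0.379, 0.179 and 0.241 in the epl1ab-labelled libraries, against 0.333, 0.507 and 0.641 in Col-0, and these groups overlapped (exact p = 0.2). For psbL over psbF, which are 21 bases apart, the ratios of 1.27, 3.4 and 2.29 in the epl1ab-labelled libraries, against 1.3, 0.811 and 0.8 in Col-0 also overlapped (exact p = 0.2). The low value of psbF in epl1ab-labelled replicates 2 and 3 rests on 5 and 7 reads.

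Grouped by polymerase, 15 rows were listed for the 27 genes of the photosystems, cytochrome b6f and rbcL, which depend mainly on PEP, with log2 fold changes from -2.33 to -1.002 and a median of -1.37. Of 5 genes that depend on NEP (rpoB, rpoC1, rpoC2, accD and ycf2) 0 were listed. Of 14 genes with promoters of both kinds 5 rows were listed, all of the ATP synthase, with a median of -1.32. The class of the other 12 listed genes was not assigned. Genes outside the tables may have missed the threshold in either direction or at low counts, so their levels are not known here. Repeats limit what a count can hold: 33 of 130 annotated plastid genes lie wholly in sequence whose every stretch of 50 bases occurs again in the plastid genome, as in the inverted repeat that holds the rRNA genes and ycf2, and 0 of these were listed. In 26 of the 32 members every such stretch was found once in the assembly, and the lowest share was 85.5% in rbcL, part of which also occurs in the mitochondrial and nuclear sequences.

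Per kilobase of gene span, psbA was the most abundant member in both groups, at 902 ± 86.2 in epl1ab-labelled and 1805 ± 276 in Col-0 libraries (normalised reads per kilobase, SD, n = 3 each). rbcL followed with 371 ± 93.2 in epl1ab-labelled and 1065 ± 155 in Col-0 libraries. The atpE row with atpB took the third place in Col-0 and the eighth in the epl1ab-labelled libraries, at 122 ± 22.1 in epl1ab-labelled and 524 ± 40.6 in Col-0 libraries. rpl14 held the sixth place in Col-0 and the third in the epl1ab-labelled libraries, at 183 ± 20.8 in epl1ab-labelled and 374 ± 63.9 in Col-0 libraries. In Col-0 neighbours in the order from psbD to psaJ did not differ beyond their spread, with means between 306 and 406. ndhH was the lowest protein-coding member in Col-0 and ndhC the lowest in the epl1ab-labelled libraries, at 5.78 ± 1.9 in epl1ab-labelled and 33.9 ± 3.13 in Col-0 libraries for ndhC. psbA, rbcL and the rows of psbD and atpE together held 63.0% of the members' reads in the epl1ab-labelled and 63.9% in the Col-0 libraries. Across the 31 members in the fit, the Col-0 level per kilobase and the log2 fold change had a Spearman correlation of 0.121, as a description of genes that share libraries.

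Most nuclear genes checked that act with the plastid genome were listed too, SIG5 alone in the other direction. Of 12 proteins bound to PEP, 11 were called lower and 0 higher, with a median log2 fold change of -1.68, and TRXZ was not in the tables. PTAC7 and PTAC14, 2 of these proteins, fell most, at -2.34 ± 0.09 and -2.26 ± 0.12 (SE). Of 6 sigma factors, which direct PEP to promoters, 4 were called lower, led by SIG2 (-2.01 ± 0.07) and SIG6 (-1.69 ± 0.10), SIG1 was not in the tables, and SIG5 was called higher (2.35 ± 0.11). RPOTP, the plastid NEP, was called lower at -1.04 ± 0.09, and RPOTMP, which serves plastids and mitochondria, was not in the tables. Since 36.9% of the genes in the fit were lower and each was called, these counts too repeat the authors' listing.

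The plastid-encoded and nuclear-encoded subunits of one complex are set side by side as sums over listed genes, in percent of the Col-0 mean. Each summed gene had passed the authors' threshold of 1 on the log2 scale, which bounds the sums of both genomes from above. Genes that fell less are not in them, so an overlap between the genomes is only a description. For photosystem II the plastid rows stood at 47.5, 44.7 and 39.3% in the epl1ab-labelled libraries, and 7 nuclear genes of 10 at 46.3, 40.1 and 39.0%. For photosystem I the plastid rows stood at 49.1, 54.0 and 38.7%, and 11 nuclear genes of 12 at 46.0, 40.2 and 39.5%. In both photosystems the ranges from the plastid and the nuclear genome overlapped. The largest changes among the nuclear genes were those of PSBQA (-1.77 ± 0.10) and PSBTN (-1.70 ± 0.10) in photosystem II and of PSAE2 (-1.64 ± 0.09) and PSAG (-1.52 ± 0.09) in photosystem I (log2, SE). The ATP synthase had 34.6, 30.9 and 26.4% for its plastid rows and 49.8, 39.7 and 38.4% for its 3 nuclear genes, of which ATPG (-1.39 ± 0.10) and ATPD (-1.32 ± 0.13) changed most. These ranges did not overlap, and the difference was not tested. It lay in the row of atpE and atpB, whose group means had a log2 ratio of -2.10. The other 4 plastid rows together stood at -1.25 and the nuclear genes at -1.23. The listed NDH genes stood at 25.6, 24.0 and 20.8% for 4 plastid rows and 23.4, 17.7 and 15.9% for 4 nuclear genes. These sums joined unlike members. By their fold changes ndhK, ndhJ and ndhC were left at 13.8, 14.5 and 17.6% and ndhH at 46.0%. Among the nuclear genes NDHN changed by -7.28 ± 0.24 and NDHO by -3.73 ± 0.15 (log2, SE). NDHM changed by -1.86 ± 0.16 and NDHL by -1.66 ± 0.14 (log2, SE). Rubisco stood at 42.9, 36.2 and 25.5% for rbcL and at 37.9, 32.5 and 31.0% for the 2 listed small-subunit genes of 4, RBCS2B (-2.73 ± 0.11) and RBCS3B (-1.08 ± 0.11), whose close copies can share reads. PETC and PETM, the nuclear genes of cytochrome b6f on the list, were not in the tables.

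**Figure D4:**
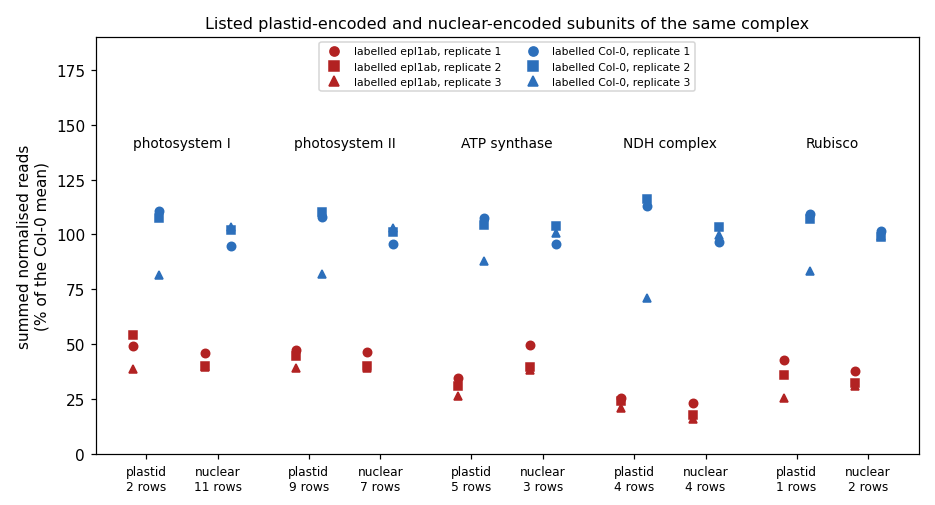
Summed normalised reads of listed plastid-encoded and nuclear-encoded subunits of 5 complexes in each library, in percent of the Col-0 mean (linear axis from 0), with libraries labelled epl1ab in red left of Col-0 in blue. The ATP synthase has its plastid rows at 26.4 to 34.6% in the epl1ab-labelled libraries and its nuclear genes at 38.4 to 49.8%. The row of atpE and atpB fell most among these plastid rows (log2 ratio -2.10, against -1.25 for the other 4 together). Col-0 replicate 3 is the lowest Col-0 library for the plastid rows of each complex.

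In both groups replicate 3 tended to be the lowest for the plastid rows. Col-0 replicate 3 had the lowest Col-0 value in 27 of the 32 members, and epl1ab-labelled replicate 3 the lowest of its group in 23. Replicate 1 of the epl1ab-labelled group, which stood apart in the seed maturation genes, had the highest value of its group in 20. Without Col-0 replicate 3 the members' median log2 fold change was -1.51, and without epl1ab-labelled replicate 3 it was -1.28. No sequencing date or batch beyond the replicate number is given in the labels.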

How the data were processed

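The deposited data are 2 tables, of genes that the authors found lower or higher in libraries labelled epl1a epl1b. Per the file headers they give, for each gene, the raw read count in 6 libraries, the authors' p-value, an FDR (false discovery rate), and the log2 fold change of epl1ab-labelled over Col-0 libraries. Per the labels' protocols, stranded libraries of total RNA, depleted of ribosomal RNA, were read from one end over 50 bases. The submitters' processing notes name TAIR10 and DESeq2. Aligner, counter and use of strand: not given in the sources used here. Listed genes hold 7355421 to 8625707 reads in the epl1ab-labelled and 9265086 to 10938542 in the Col-0 libraries, which is not the full depth. No plastid span overlaps an annotated gene on the other strand.

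Factors for depth were recovered by a least-squares fit to the authors' log2 values in 1774 genes with 200 or more reads throughout (median absolute residual 0.00029). In R 4.3.3, edgeR 4.0.16 with limma 3.58.1 tested 4773 genes past its expression filter by quasi-likelihood, with Benjamini-Hochberg adjustment over all of them. SE is the fold change (log2) divided by the root of F. DESeq2 1.42.0, TMM, other filters, a replicate block and leaving out each library were alternatives. The edgeR fit was also run on simulated counts in which few genes changed and all had one dispersion. The listed genes are unlike that, so this run checks the code only. Ratios and sums used pandas 2.3.3, scipy 1.17.1 and numpy 2.4.6 under Python 3.11.15. The edgeR and DESeq2 p-values set the group difference against the spread between the 3 libraries of a group, an estimate partly shared over the genes in the fit. The exact p of a ratio ranks the observed grouping among all groupings of the libraries. Members, gene lists and tests were chosen with earlier results of these data known. Each member is named with its values in all libraries, and of nuclear lists the 2 largest changes and any exception. Polymerase classes and transcription units are from general knowledge of plastid genomes.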

Additional observations from a re-analysis of the deposited data

How the results depend on the processing

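The direction of each plastid transcript that was called was kept under each alternative run. The number called lower was 31, between 30 and 31 when one library was left out, 29 with TMM factors of the listed genes and 32 with DESeq2 or with no filter on low counts, where the filter decides how many are tested. The log2 ratio of the summed plastid reads was -1.34, between -1.45 and -1.24 when one library was left out, -1.76 with TMM factors and -2.44 with DESeq2 size factors of the listed genes. These scalings assume most listed genes unchanged and moved the median log2 fold change of all genes to 0.85 and 0.26, against 1.26 with the recovered factors, and that of the plastid transcripts to -1.78 and -2.48, against -1.37. Against the plastid sum, 3 transcripts were called lower and 0 higher, between 2 and 4 lower and 0 higher when one library was left out, and 1 lower with DESeq2 (the atpE row). The number called higher was 1 (psbA) without psbA in the sum. ndhJ did not pass the filter in that comparison without Col-0 replicate 2 or 3. The cause of these differences was not tested. With the replicate number as a block, 31 transcripts were called lower, and 3 lower and 1 higher (psbA, 0.35, adjusted p = 0.0127) against the plastid sum. Over the 4773 genes in the fit, deviations of same-numbered libraries had correlations of -0.28, -0.04 and -0.21, and no epl1ab-labelled library correlated best with its own number, so the numbers were not taken as pairs. The plastid rows behaved otherwise: replicate 3 had the lowest sum in both groups. Depth limits the ndh, psbK and tRNA values, which rest on few reads.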
